A study of Mus musculus with 4 samples.

Results

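Collagen is made as procollagen in the endoplasmic reticulum, where prolyl 4-hydroxylases (P4ha1 and P4ha2 encode catalytic subunits) and lysyl hydroxylases (Plod1, Plod2 and Plod3) add hydroxyl groups to the chains and the chaperone HSP47, encoded by Serpinh1, holds the folded helix. Outside the cell, Pcolce speeds removal of the C-terminal propeptide, and the lysyl oxidases Lox, Loxl1 and Loxl2 oxidise lysines so that fibres crosslink. The hydroxylases use iron, oxygen, 2-oxoglutarate and ascorbate, whereas lysyl oxidases are copper-dependent amine oxidases. Preadipocytes lay down a fibrous collagen matrix that is remodelled as they become fat cells. These 10 genes were chosen by function, with their log2 signals on the 4 arrays and their differences from control siRNA already known, and those values are therefore given as descriptions. The array named 18194 genes by a probe set of 1 symbol, and 9 of the 10 are among them.

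The cells were 3T3-L1, a line of mouse embryo fibroblasts that becomes adipocytes under hormonal induction, and gene expression was read on arrays. Cultures carried an siRNA against Aof2 (now Kdm1a, the flavin-dependent histone demethylase LSD1), an siRNA against Rfk (riboflavin kinase, which makes flavin mononucleotide), or the control siRNA siGL3, and induction with insulin, dexamethasone and isobutylmethylxanthine began 24 h after transfection. In a further culture tranylcypromine (TC), which inhibits LSD1 and the monoamine oxidases, was added to the induction medium. The labels name no siRNA and no dose for it, so that an effect of TC and one of lacking transfection cannot be told apart. All cells grew in 25 mM glucose and 10% serum and were harvested 24 h after induction, and each group has 1 array. The title of the control array ends in a number that the others lack, and whether it marks a further culture or array was not stated. There were no replicates, so no test between cultures was possible, and each value is a single measurement whose precision is limited by the number of arrays. The 3 treated cultures share the control array, and fewer cells of a type and less RNA per cell cannot be told apart in such samples.

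The values are MAS5 signals, a linear brightness per probe set (a group of short probes for 1 transcript), and differences are given on the log2 scale, on which 1.0 is 2-fold. Kdm1a stood at 19.5% of control in the aof2 siRNA array and Rfk at 27.0% of control in the rfk siRNA array. All 8 preadipocyte and fibroblast markers reached the signal filter of 50.9, and their summed signals were 83143 to 90373 over the 4 arrays. Of the 5 adipocyte markers on the array 4 reached it, and Adipoq did not. Their summed signals were 6325 with aof2 siRNA, 6825 with rfk siRNA and 5806 with TC, against 8878 with control siRNA. Of 5 macrophage, 4 endothelial, 4 epithelial and 4 skeletal muscle markers, 4, 3, 3 and 2 stayed under the filter, and the highest summed signal of any of these lists on any array was 352. Among 2419 genes with several bright probe sets (signal of at least 414), the median gap between the log2 differences of the probe sets of a gene was 0.16 with aof2 siRNA, 0.14 with rfk siRNA and 0.19 with TC, and the 95th percentile of this gap was 0.56, 0.52 and 0.72. These gaps describe probe error and not the spread between cultures, which was not measured.

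The set was covered by 19 probe sets. Both probe sets of Loxl2 are annotated to Gm21451 as well, so they name no gene and Loxl2 received no value. They were dim, with mean signals of 64.2 and 24.7. The other 17 probe sets belong to 9 genes, all of them reached the filter, and 7 of the 9 genes had more than 1. Each gene is represented by its brightest probe set unless another is named. The genes split into those highest in the control array, those highest with aof2 siRNA or TC, and those that hardly varied.

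**Figure D1:**
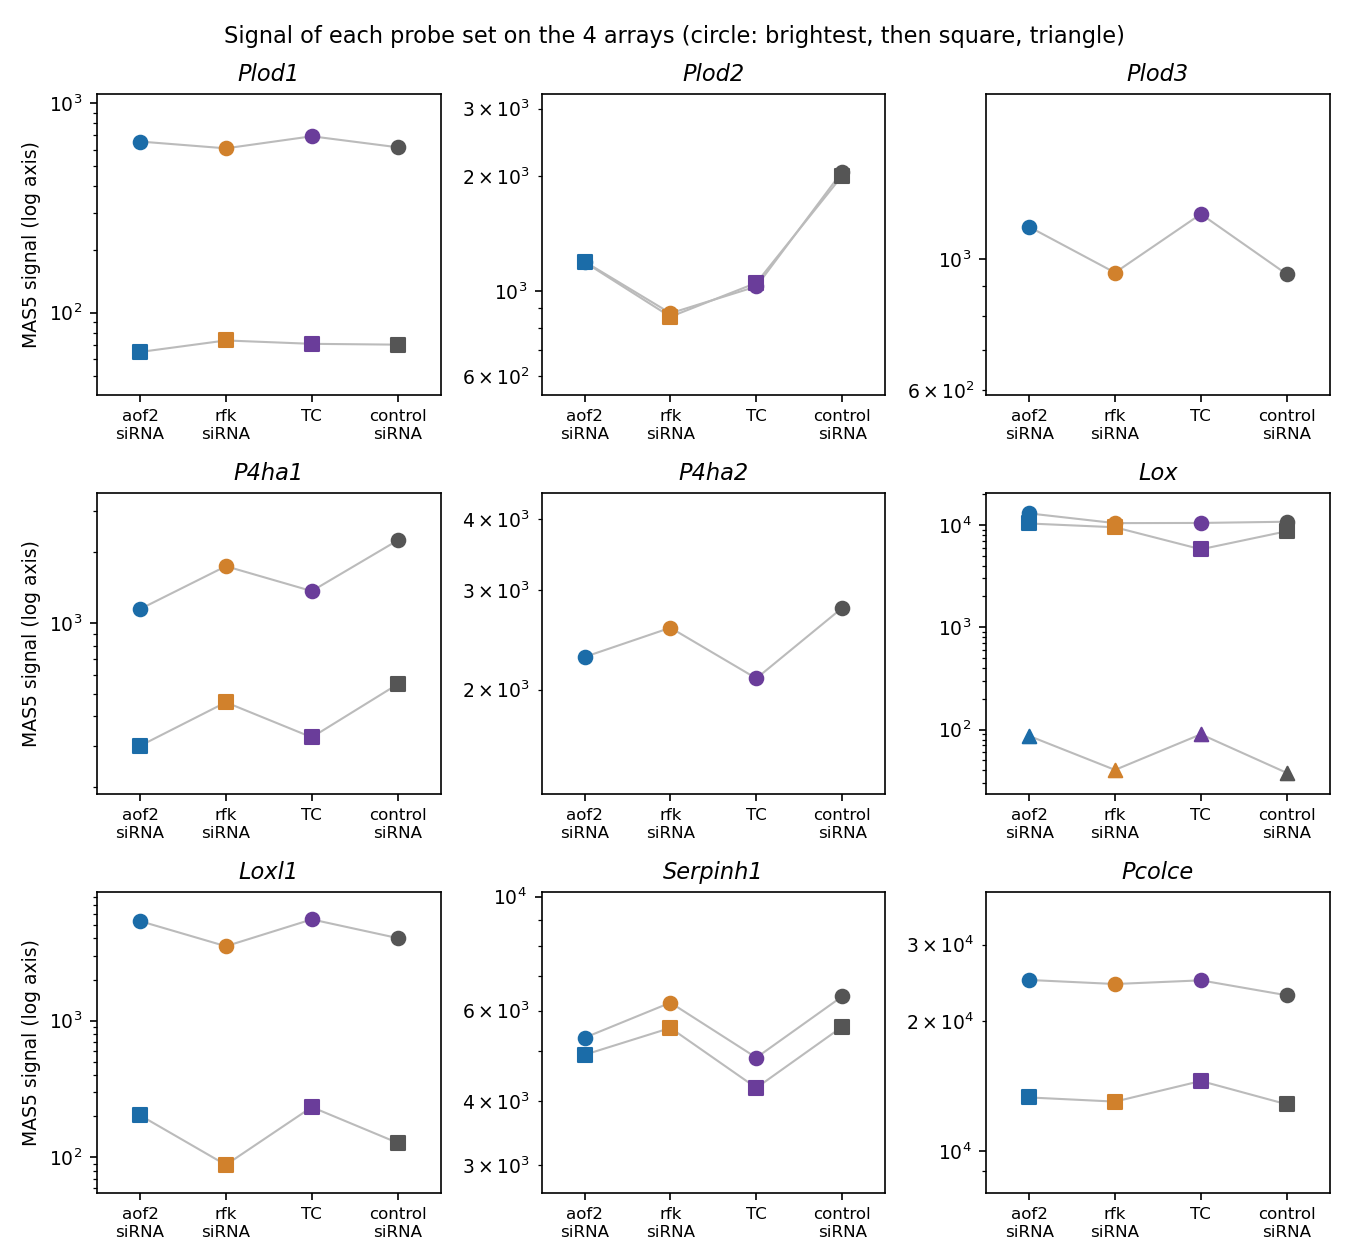
MAS5 signal (log axis) of the 17 probe sets of 9 genes on the arrays for aof2 siRNA, rfk siRNA, TC and control siRNA, 1 array each, with circles for the brightest probe set of a gene and squares and triangles for the others. Plod2 was highest in control and lowest with rfk siRNA on both of its probe sets, P4ha1 was lowest with aof2 siRNA on both, and the probe sets of Lox did not follow each other.

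Plod2 encodes lysyl hydroxylase 2, the form that hydroxylates the telopeptides of collagen and so decides which crosslinks form. It lies on chromosome 9 at 92539636 to 92608428 (GRCm38.p6). Its signal was 1194 with aof2 siRNA, 874 with rfk siRNA and 1027 with TC, against 2053 with control siRNA. The second probe set had 1190, 856 and 1050, against 2003 with control siRNA. Every treated array was thus below control on both probe sets, in the same order, with rfk siRNA lowest. Plod2 stood at 58.1%, 42.6% and 50.03% of control, which are log2 differences of -0.78, -1.23 and -0.999, and its probe sets lay apart by 0.03, 0.01 and 0.07.

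Of the 9 genes, Plod2 with rfk siRNA was the only one at least 2-fold from control in any comparison, as 2.35-fold lower. Among the 10788 genes compared, 0.806% were at least 2-fold lower with rfk siRNA and 0.927% at least 2-fold higher. The value for TC was 1.999-fold lower, just short of the threshold. At least 2-fold lower were 0.538% of genes with aof2 siRNA and 0.945% with TC, at least 2-fold higher 1.61% and 2.23%, and 0 of the 9 members in either direction. Centring each array on its median put the share of higher genes among those called with aof2 siRNA at 63.5%, in place of 75%.

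Set among genes with a bright signal, 0.0727% of 6873 lay as low as Plod2 with rfk siRNA, 0.378% with aof2 siRNA and 0.320% with TC. Between the treated arrays Plod2 differed less. Its log2 difference was -0.45 for rfk siRNA minus aof2 siRNA, -0.22 for TC minus aof2 siRNA and 0.23 for TC minus rfk siRNA. The 3 differences from control all rest on the single high value of the control array. Against the mean of the 3 other arrays, Plod2 stood at -0.04 with aof2 siRNA, -0.64 with rfk siRNA and -0.33 with TC.

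The other lysyl hydroxylases did not share this pattern. Plod1, which hydroxylates lysines within the helix, had signals of 655 with aof2 siRNA, 608 with rfk siRNA and 694 with TC, against 615 with control siRNA. Its log2 differences were 0.09, -0.02 and 0.17, and its dim second probe set, at 64.9 to 73.7, gave -0.12, 0.07 and 0.01. Plod3, which also transfers sugars onto hydroxylysine, had 1134, 948 and 1192, against 942 with control siRNA. Its aof2 siRNA and TC arrays were above the other two, by 0.27 and 0.34 against control, and the rfk siRNA array was within 0.01 of it. Plod2 and Plod3 therefore lay on opposite sides of control with aof2 siRNA and with TC.

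P4ha1 encodes a catalytic subunit of prolyl 4-hydroxylase, whose product 4-hydroxyproline makes the collagen helix stable. It lies on chromosome 10 at 59323197 to 59373304. Its signal was 1147 with aof2 siRNA, 1748 with rfk siRNA and 1369 with TC, against 2253 with control siRNA. The second probe set had 299.5, 459 and 326, against 549 with control siRNA. Both gave the same order, with aof2 siRNA lowest and control highest. P4ha1 stood at 50.9%, 77.6% and 60.8% of control, with log2 differences of -0.97, -0.37 and -0.72. The probe sets lay apart by 0.10, 0.11 and 0.03. With aof2 siRNA the difference of P4ha1 was beyond the 95th percentile of the gaps between bright probe sets of a gene. Its differences with rfk siRNA and with TC were within that percentile, with TC only just.

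At the 1.5-fold threshold, P4ha1 and Plod2 were the members lower with aof2 siRNA and with TC, 2 of 9 in each, and Plod2 was the member lower with rfk siRNA. The share of all genes at least 1.5-fold lower was 2.88% with aof2 siRNA, 3.8% with rfk siRNA and 4.77% with TC. None of the 9 was at least 1.5-fold higher (0 in each comparison), against 6.26%, 3.92% and 7.48% of all genes. The aof2 siRNA value of P4ha1, 1.96-fold lower, was just short of the 2-fold threshold, and centring each array on its median put it past 2-fold. Among bright genes, 0.160% lay as low as P4ha1 with aof2 siRNA, 5.99% with rfk siRNA and 1.11% with TC.

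P4ha1 differed more between the siRNA arrays than Plod2 did. Rfk siRNA minus aof2 siRNA was 0.61 on the log2 scale, or 1.52-fold, and 0.62 on the second probe set. P4ha1 was the 1 of 9 members at least 1.5-fold higher in that comparison, as were 3.22% of all genes. P4ha1 and Plod2 thus had their lowest signals on different arrays, P4ha1 with aof2 siRNA and Plod2 with rfk siRNA.

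P4ha2, the other catalytic subunit measured as a member, lies on chromosome 11 at 54100924 to 54131668 and has 1 probe set. Its signal was 2284 with aof2 siRNA, 2573 with rfk siRNA and 2093 with TC, against 2790 with control siRNA. All treated arrays were below control, by log2 differences of -0.29, -0.12 and -0.41. Serpinh1, on chromosome 7 at 99345375 to 99353239, had 5314, 6218 and 4860, against 6395 with control siRNA. Its second probe set had 4923, 5553 and 4245, against 5583 with control siRNA. The log2 differences of Serpinh1 were -0.27, -0.04 and -0.40, and the second probe set gave -0.18, -0.01 and -0.40. P4ha2 and Serpinh1 showed 1 order on all of their probe sets, with TC lowest, then aof2 siRNA, then rfk siRNA, then control. Their differences were smaller than the 95th percentile of the gaps between bright probe sets of a gene. Among bright genes, 6.49% and 7.30% lay as low as P4ha2 and Serpinh1 with TC.

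Bases before the annotated starts of P4ha1 and P4ha2 are shown because both genes lay below control on every treated array and are known targets of hypoxia-inducible factor, which binds DNA at ACGTG and GCGTG. Plod3, which was not below control, is shown beside them. Serpinh1, which was below control on every treated array, is not shown. The sequences are from the RefSeq promoter table (GRCm38.p6), which holds 6 of the 10 members, and run 5′ to 3′ on the strand of the gene. Capitals mark ACGTG and GCGTG on either strand (CACGT and CACGC where the match is on the other strand). The stretches are chr10:59323046-59323196 for P4ha1 (plus strand, 151 bases), chr11:54100674-54100923 for P4ha2 (plus strand, 250 bases) and chr5:136986769-136987018 for Plod3 (plus strand, 250 bases).
P4ha1: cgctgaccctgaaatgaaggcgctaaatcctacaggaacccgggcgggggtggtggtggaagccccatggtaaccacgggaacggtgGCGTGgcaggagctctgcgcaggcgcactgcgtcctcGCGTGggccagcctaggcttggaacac
P4ha2: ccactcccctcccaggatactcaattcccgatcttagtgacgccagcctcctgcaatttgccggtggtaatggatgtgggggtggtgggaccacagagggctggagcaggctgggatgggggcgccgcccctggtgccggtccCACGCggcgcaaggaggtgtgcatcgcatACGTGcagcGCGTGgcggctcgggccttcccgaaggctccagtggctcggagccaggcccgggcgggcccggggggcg
Plod3: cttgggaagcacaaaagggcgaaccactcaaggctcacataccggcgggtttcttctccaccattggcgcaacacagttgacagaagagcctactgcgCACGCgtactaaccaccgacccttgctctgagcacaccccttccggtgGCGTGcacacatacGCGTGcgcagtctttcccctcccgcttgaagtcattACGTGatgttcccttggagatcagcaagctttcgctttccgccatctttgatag

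In the 250 bases before the transcription start used by that table, P4ha1 held 1 ACGTG and 2 GCGTG, of which both GCGTG are in the stretch shown and the ACGTG lies inside the annotated span of the gene. P4ha2 held 1 ACGTG and 2 GCGTG, and Plod3 held 1 ACGTG and 3 GCGTG. Serpinh1 held 1 ACGTG, and Plod1 and Pcolce 1 GCGTG each, so that 6 of the 6 members in the table had a match. Among all 32851 promoters of the table, 16.6% had an ACGTG, 28.2% a GCGTG and 38.6% either. The words differ in their first letter and so never match at the same place, and a CACGTG would count on each strand. The matches describe these letters, and any part of them in the signals was not tested.

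**Figure D2:**
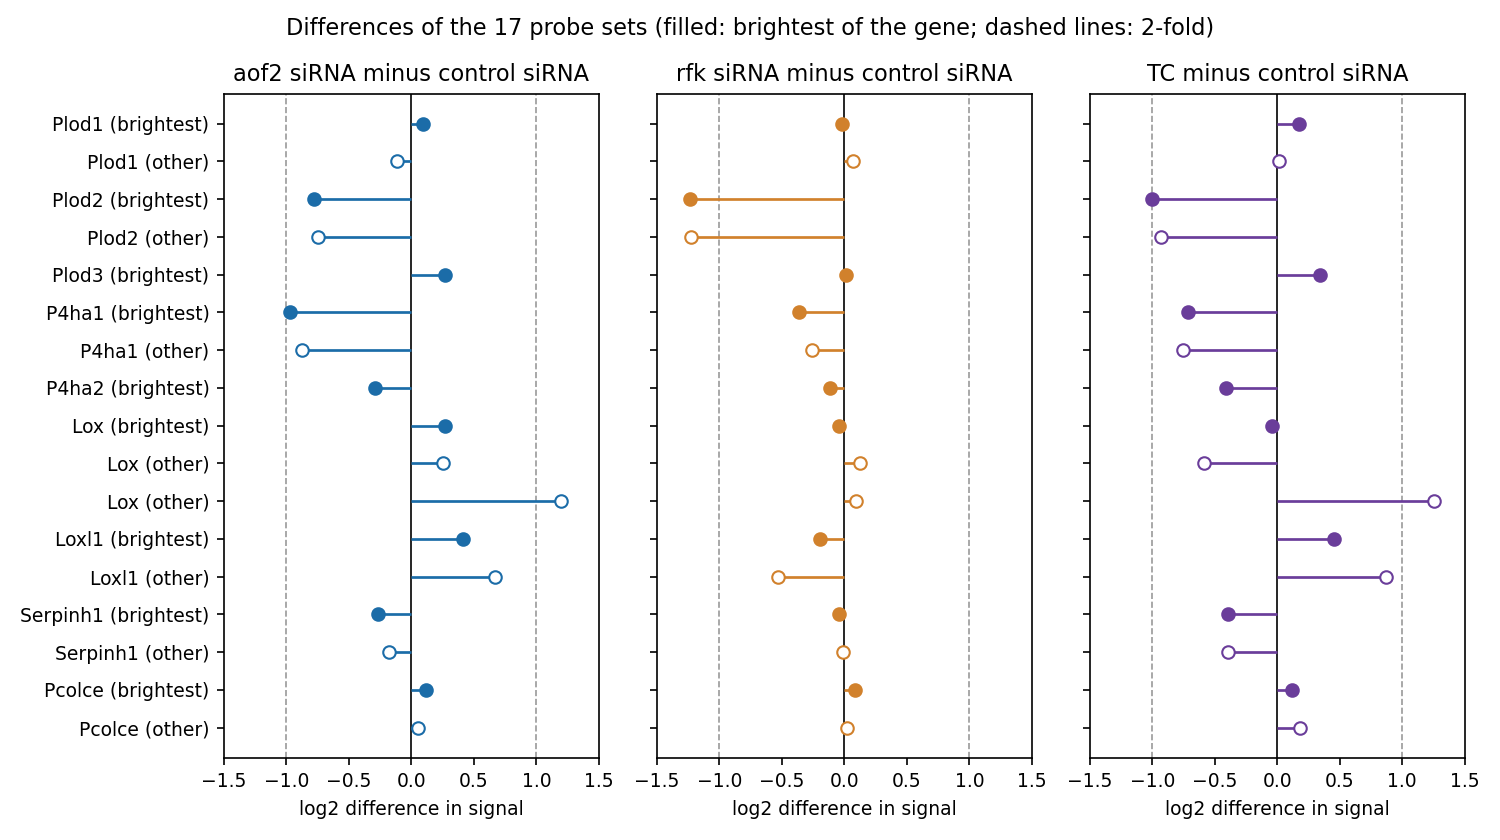
Log2 difference in signal from the control siRNA array for each of the 17 probe sets, for aof2 siRNA, rfk siRNA and TC, with filled points for the brightest probe set of a gene, open points for the others and dashed lines at 2-fold. The probe sets of Plod2, P4ha1 and Serpinh1 lie close together, while those of Lox with TC run from -0.59 to 1.25.

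Of the lysyl oxidases, Loxl1 and Lox were measured. Loxl1, an oxidase known for its role in elastic fibres, lies on chromosome 9 at 58287723 to 58313212. Its signal was 5361 with aof2 siRNA, 3510 with rfk siRNA and 5515 with TC, against 4025 with control siRNA. The second probe set, which is dimmer, had 203, 88.2 and 233, against 128 with control siRNA. On both, TC and aof2 siRNA were above control and rfk siRNA was below it. The log2 differences of Loxl1 were 0.41, -0.20 and 0.45, and those of the second probe set 0.67, -0.54 and 0.87.

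Loxl1 was the member furthest above control with aof2 siRNA and with TC. As high among bright genes were 6.40% with aof2 siRNA and 7.01% with TC. TC minus rfk siRNA was 0.65 on the log2 scale, or 1.57-fold, and 2.65-fold on the second probe set. Loxl1 was the 1 of 9 members at least 1.5-fold higher in that comparison, as were 7.87% of all genes. Rfk siRNA minus aof2 siRNA was -0.61, past 1.5-fold lower, as were 6.28% of all genes in that comparison.

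Lox, the founding lysyl oxidase, had 3 probe sets that went apart. The brightest had 12957 with aof2 siRNA, 10409 with rfk siRNA and 10450 with TC, against 10740 with control siRNA. The second had 10323, 9481 and 5778, against 8673 with control siRNA. The third, which is dim, had 86.7, 40.4 and 89.98, against 37.8 with control siRNA. With aof2 siRNA all of them were above control, by 0.27, 0.25 and 1.20 on the log2 scale. With rfk siRNA they lay at -0.05, 0.13 and 0.10. With TC they lay at -0.04, -0.59 and 1.25, so that no direction can be given for Lox with TC. The gap of 1.84 with TC compares with a 95th percentile of 1.24 over the 5228 genes that had several probe sets past the filter. The dim probe set had a mean of 58.7, and it passed the filter of 50.9 only through the aof2 siRNA and TC arrays, where it was high. Its control siRNA and rfk siRNA signals were under the filter. It was 2.30-fold higher with aof2 siRNA and 2.38-fold higher with TC, ratios to a control signal near the floor. Of the probe sets past the filter, 1.68% and 2.12% were at least 2-fold higher.

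Pcolce, the procollagen C-proteinase enhancer, varied least of the 9 genes. Its signal was 24859 with aof2 siRNA, 24330 with rfk siRNA and 24807 with TC, against 22914 with control siRNA. The second probe set had 13316, 13025 and 14532, against 12839 with control siRNA. All treated arrays were slightly above control, with log2 differences of 0.12, 0.09 and 0.11, and with quantile normalization the rfk siRNA and TC differences were -0.05 and -0.04.

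Over the 9 genes the median log2 difference was 0.09 with aof2 siRNA, -0.05 with rfk siRNA and -0.04 with TC, beside -0.00412, -0.00889 and -0.0158 for all 10788 genes. Below control were 4 of 9 with aof2 siRNA, 7 of 9 with rfk siRNA and 5 of 9 with TC, beside 50.7%, 51.5% and 52.0% of all genes. These counts rest partly on values near 0, with Plod1, Lox and Serpinh1 at -0.02, -0.05 and -0.04 with rfk siRNA. The medians with rfk siRNA and TC are the values of Lox, whose probe sets went apart with TC. With all probe sets averaged, Plod1 and Lox were at 0.02 and 0.06 with rfk siRNA, Lox at 0.21 with TC, and Plod1 at -0.01 with aof2 siRNA. The members with aof2 siRNA ran from -0.97 (P4ha1) to 0.41 (Loxl1), with rfk siRNA from -1.23 (Plod2) to 0.09 (Pcolce), and with TC from -0.999 (Plod2) to 0.45 (Loxl1). With rfk siRNA 7 of the 9 lay between -0.20 and 0.09, and Plod2 and P4ha1 were the others.

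**Figure D3:**
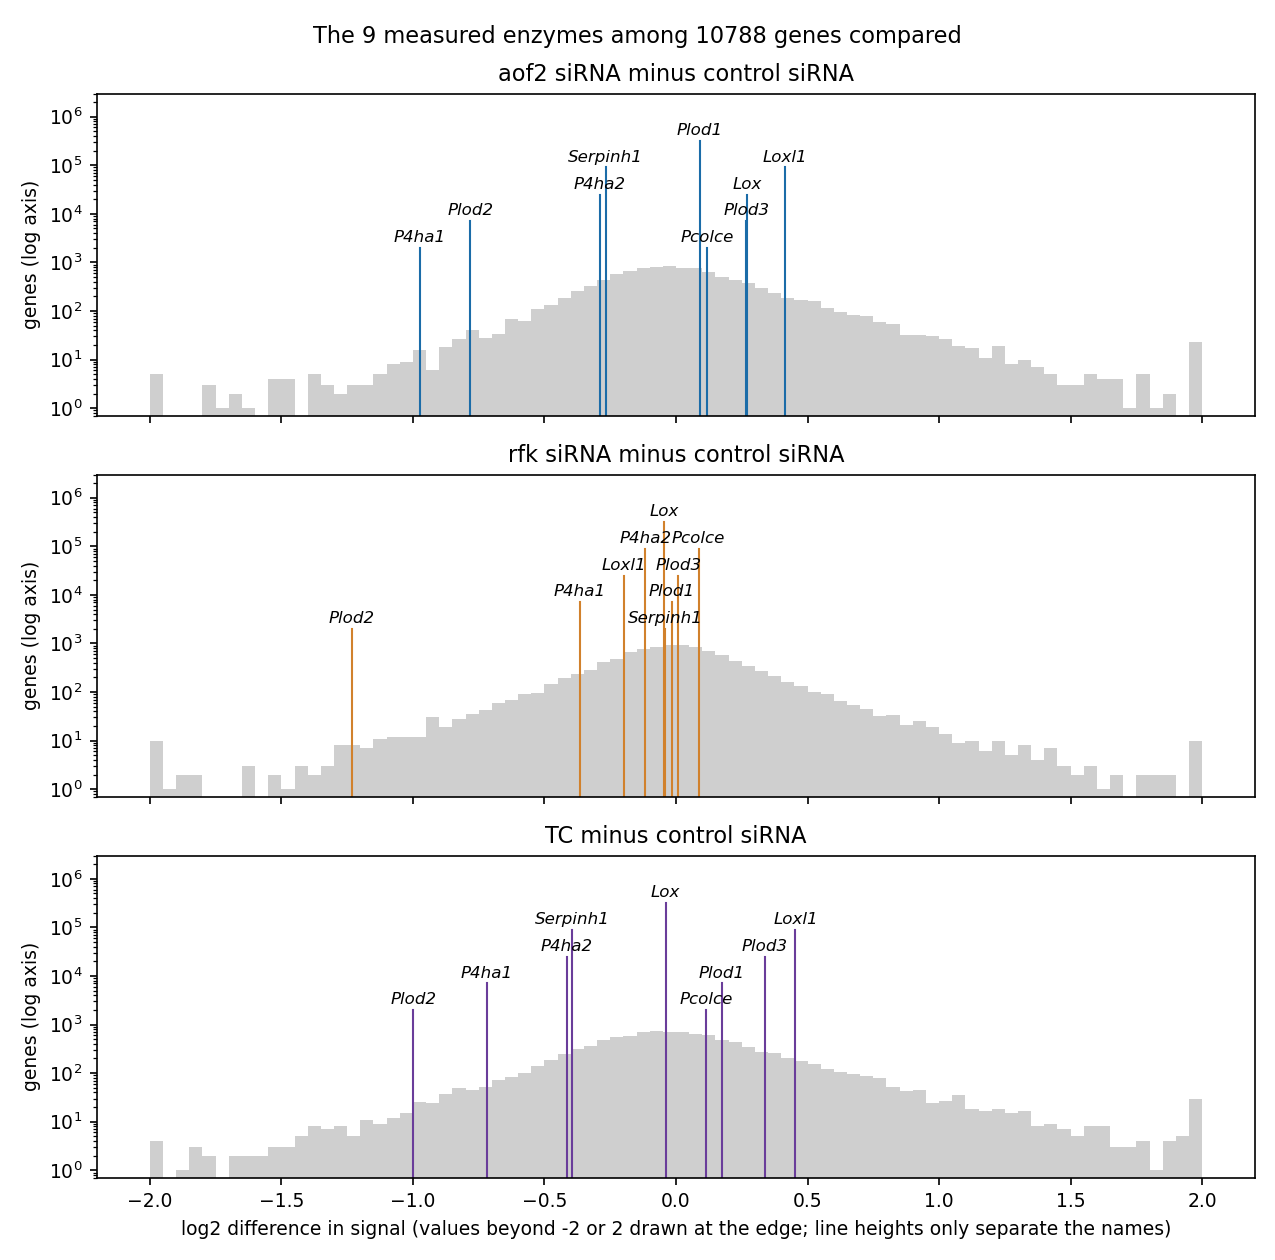
Histograms of the log2 difference in signal from control siRNA over the 10788 genes compared (log axis), for aof2 siRNA, rfk siRNA and TC, with a line at each of the 9 measured members whose height has no meaning. With rfk siRNA Plod2 stands alone at -1.23, whereas with aof2 siRNA and with TC the members spread to both sides, with P4ha1 and Plod2 lowest and Loxl1 highest.

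Further genes of collagen maturation gave few differences. Of 25 listed, 22 were named on the array and 18 reached the filter; Fkbp10, Adamts2 and Adamts14 were not analysed here. At least 1.5-fold lower with aof2 siRNA was 1 of 18, P3h3 of the prolyl 3-hydroxylase family, at -0.65. At least 1.5-fold higher with rfk siRNA was 1, Pcolce2, a relative of Pcolce, at 0.75, with signals of 1001 with rfk siRNA and 596 with control siRNA. With TC, P4ha3 was higher at 0.75, with 276 against 164 in control, and the oxidase gene Loxl4 was lower at -0.95, with 153 against 295. Of all genes, 2.88% were at least 1.5-fold lower with aof2 siRNA, 3.92% higher with rfk siRNA, and 7.48% higher and 4.77% lower with TC. P4ha3 is a further catalytic subunit of prolyl 4-hydroxylase, and with TC it lay on the other side of control from P4ha1 and P4ha2. The TC difference of P4ha3 was smaller than the 95th percentile of the probe set gaps, 1.24 over 5228 genes past the filter. P4hb, the shared beta subunit of that enzyme, had log2 differences of -0.04, -0.04 and 0.13, and Loxl3 of 0.18, -0.09 and 0.01. The medians of the 18 genes were -0.03, -0.06 and -0.02.

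The collagen chains, which are the substrates, included genes far from control on either side. Of 17 chain genes compared, 5 were at least 1.5-fold lower with TC, 2 with rfk siRNA and 0 with aof2 siRNA, and 2, 1 and 1 were at least 1.5-fold higher. Of all genes, 4.77%, 3.8% and 2.88% were at least 1.5-fold lower in these comparisons, and 7.48%, 3.92% and 6.26% higher. Col1a1 had 983 with aof2 siRNA, 715 with rfk siRNA and 729 with TC, against 1438 with control siRNA. Its order over the arrays, with control highest, then aof2 siRNA, TC and rfk siRNA, was that of Plod2. Col1a2, the gene of the other collagen I chain, did not share it. Its signals were 23350 to 25129 over the arrays, and its log2 differences were -0.01, 0.10 and 0.04. Lowest after Col1a1 with TC was Col11a1, a fibril-forming chain, at -0.87. Furthest above control was Col8a1, a short-chain collagen, with signals of 113 with aof2 siRNA, 55.5 with rfk siRNA and 107 with TC, against 31.1 with control siRNA, which is under the filter. Its mean reached the filter through the aof2 siRNA and TC arrays, where it was high. Col8a1 was the 1 chain gene counted as higher with aof2 siRNA and with rfk siRNA, and 1 of the 2 with TC. Its log2 differences were 1.85, 0.83 and 1.78, and Col18a1 was at 0.79 with TC. The chain medians were 0.15, 0.00360 and -0.05.

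Of the elastic fibre genes, several stayed under the filter. Of 6 compared, Ltbp2 was at 1.04, 0.45 and 1.31 and Fbln5, which binds elastin, at 0.68, 1.10 and 0.66. Emilin1 was at -0.71, -0.34 and -0.86. Eln, the elastin gene, stayed under the filter on average, with signals of 46.2, 20.8 and 86.1, against 61.9 with control siRNA.

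Plod2, P4ha1, P4ha2 and Lox are known as genes induced by hypoxia-inducible factor, and other targets of that factor were listed beside them. Of 22 compared, 19 lay below control with aof2 siRNA, 19 with rfk siRNA and 15 with TC, with medians of -0.33, -0.23 and -0.17. These are 86.4%, 86.4% and 68.2%, beside 50.7%, 51.5% and 52.0% of all genes. At least 1.5-fold lower were 6, 2 and 2 of the 22, beside 2.88%, 3.8% and 4.77% of all genes. With aof2 siRNA the lowest were Ankrd37 at -1.15, the mitophagy gene Bnip3 at -0.86 and the oxidase gene Ero1a at -0.84, while Ndrg1 was at 0.82. With rfk siRNA Bnip3 was at -0.62 and the phosphofructokinase gene Pfkl at -0.59, and with TC Pfkfb3 was at -1.57 and Ankrd37 at -1.44, both from signals under 250 in the control array. The list's median was lowest with aof2 siRNA, as P4ha1 was, whereas Plod2 was lowest with rfk siRNA and P4ha2 with TC, at -0.41. Lox was above control with aof2 siRNA on all 3 probe sets, at 0.27, 0.25 and 1.20. The adipocyte marker sum given above was also below control on each treated array, although its members did not go together. Of the 4 compared, 3, 2 and 3 lay below control with aof2 siRNA, rfk siRNA and TC. Fabp4 was at -0.92, -1.64 and -1.17 and Pparg at -0.12, -0.77 and -0.44, both lowest with rfk siRNA. Lpl was at -0.43, 0.01 and -0.47, and Cebpa at 0.56, 0.03 and 0.28. The part of these lists in the values of Plod2 and P4ha1 was not tested.

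**Figure D4:**
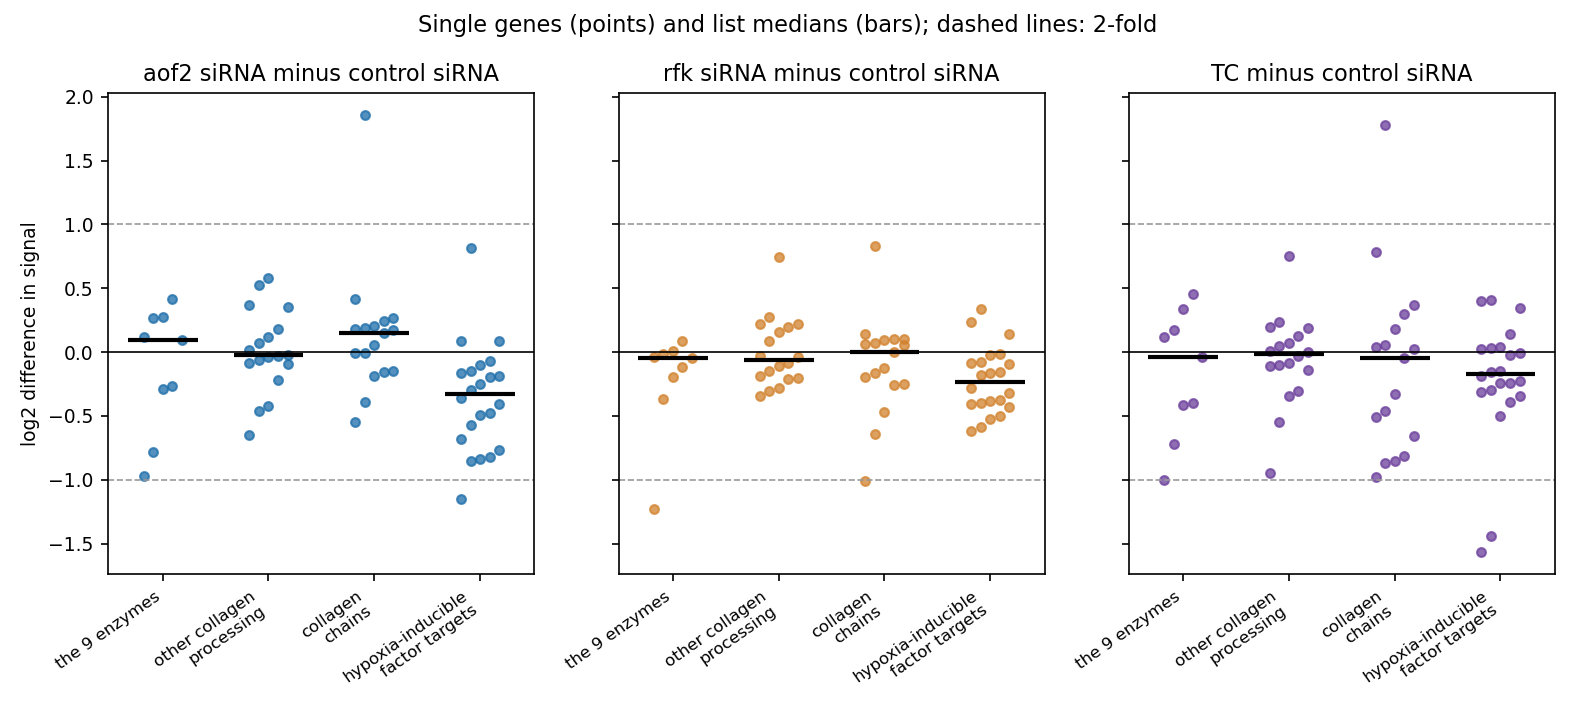
Log2 difference in signal from control siRNA of single genes (points) and the median of each list (black bars), for aof2 siRNA, rfk siRNA and TC, over the 9 measured members, 18 other collagen processing genes, 17 collagen chains and 22 targets of hypoxia-inducible factor. The medians of the first 3 lists lie between -0.06 and 0.15, and that of the targets of hypoxia-inducible factor lies at -0.33, -0.23 and -0.17.

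Among targets of transforming growth factor beta, a known inducer of Lox and Plod2, no common direction was seen. Of 12 compared, 7, 6 and 6 were above control, beside 49.3%, 48.5% and 48.0% of all genes, with medians of 0.01, 0.01 and 0.03. At least 1.5-fold higher were 3, 0 and 2 of the 12, beside 6.26%, 3.92% and 7.48% of all genes. At least 1.5-fold lower were 1, 1 and 2, beside 2.88%, 3.8% and 4.77%. Furthest above control was Ltbp2, also an elastic fibre gene, at 1.04, 0.45 and 1.31. Postn, which encodes the matrix protein periostin, was at 0.81 with aof2 siRNA, and Bhlhe40 was at -0.66 there. Tgfb1, the ligand gene itself, was at 0.78 with aof2 siRNA and 0.82 with TC. Its signals were 74.9 with aof2 siRNA, 49.3 with rfk siRNA and 77.2 with TC, against 43.7 with control siRNA. Tgfb1 thus passed the filter of 50.9 only through the aof2 siRNA and TC arrays, where it was high. Tagln, a smooth muscle gene of low signal, was at -1.13 with rfk siRNA and -1.22 with TC, and Acta2, the smooth muscle actin gene, was at -0.62 with TC.

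The genes whose 3 differences from control lay nearest to those of Plod2 were sought among 6872 bright genes by Euclidean distance. They were the receptor gene Il13ra1 (0.30 log2 units away), Col1a1 (0.33), 1810058I24Rik (0.39), Fabp4 (0.46), a lipid carrier gene of adipocytes, and the chemokine gene Ccl7 (0.49). All 5 were lowest with rfk siRNA and highest in control. Il13ra1 had signals of 808 with aof2 siRNA, 611 with rfk siRNA and 699 with TC, against 1247 with control siRNA. These genes were picked for their likeness over 4 arrays, and the 3 differences share the control array.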

How the data were processed

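From 250 ng of total RNA per culture, cRNA was labelled for an Affymetrix 3' array of 45101 probe sets, per the labels' protocols. The deposited intensity values are MAS5 signals, per the submitters' processing notes. The MAS5 version, its scaling target and detection calls were not stated there. On every array the mean without the outer 2% at each end came to 500.003, so the authors' signals carry a scaling per array, which hides differences in total RNA per cell.

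For this work log2 was taken without an offset. A single gene symbol was given for 34958 probe sets, several for 932 and none for 9211, and RefSeq (GRCm38.p6) held the gene identifiers of 34754. The probe set with the highest mean stood for its gene. Genes whose mean was at least the median probe set were compared, and called at 2-fold, or at 1.5-fold where stated. The calling step was tested on simulated data. The members and lists were chosen with earlier results of these data known. All members were named, as were the 5 genes nearest to any member past 2-fold. Of each list, genes at least 1.5-fold from control could be named, up to 3 per direction. P4hb, Loxl3, Eln and Col1a2, and the values of Lpl and Cebpa, were chosen after their values were seen. Alternatives were other scalings, an offset of 16, other filters, other choices of probe set and another reference. Python 3.11.15, NumPy 2.4.6, pandas 2.3.3 and matplotlib 3.10.9 were used.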

Additional observations from a re-analysis of the deposited data

How the results depend on the processing

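The only difference past 2-fold, that of Plod2 with rfk siRNA, kept its direction under every alternative. With each array centred on its median, the count of members at least 2-fold from control was 1 with aof2 siRNA (P4ha1) and 1 with TC (Plod2), in place of 0 in each, and with a 1.5-fold threshold it was 2 in each (Plod2 and P4ha1). Set against the 3 other arrays' mean, the count with rfk siRNA was 0, in place of 1, since Plod2 stood at -0.64. The other alternatives left these 3 counts as they were. The members' medians moved by less than the median gap between probe sets past the filter of a gene (0.31, 0.29 and 0.34 for aof2 siRNA, rfk siRNA and TC over 5228 genes) under all alternatives, although that with aof2 siRNA was -0.01 and that with TC 0.09 when all probe sets of a gene were averaged. Of 210 recomputed single differences 7 moved by more than that gap and 10 changed sign, all 10 of them under 2-fold. The 210 include the other filters and the removal of probe sets by name, which could not move a remaining member's difference. Under them the same probe set stood for the gene. Against the mean of the 3 other arrays P4ha1 was at 0.20 with rfk siRNA. Without probe sets whose names mark several transcripts, 7 members remained. The number of genes called over the whole array followed the filter, with 3518 past 2-fold with aof2 siRNA without a filter and 232 with it. No paired analysis was possible because each group has 1 array. Leaving out replicates was not possible for the same reason.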
